A study of Mus musculus with 6 samples.

Results

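The effect of the sugarcane top ethanolic extract (STEE) on cortical gene expression was examined by setting the STEE-fed SAMP8 group against the SAMP8 control group, gene by gene, over a whole-genome array. The members were all 45077 probe sets (short sets of probes that read one transcript) of the table for this pair of groups, and they rested on 4 of the 6 arrays of the series. The value for each probe set was the difference between the authors' group means, STEE-fed minus control, on the log2 scale, so that 1 is a doubling and -1 a halving. The SAMP8 control group (SAMP8 + Water, 2 male mice, cerebral cortex) received water. The STEE-fed group (SAMP8 + STEE, 2 male mice, cerebral cortex) received the extract at 20 mg/kg orally. All groups, SAMR1 included, had the same schedule, with 30 days of administration that continued through 8 days of behavioral testing. The SAMR1 + Water group (2 male mice, cerebral cortex) is quoted below as a level beside the other groups. All animals are labelled 16 weeks old. The study's methods give this age for the mice used, before describing acclimatization, administration and testing. They do not state the age when cortex was taken. They place the killing of the mice on the day after the last behavioral test, when the animals were older than 16 weeks. They add that bromodeoxyuridine was given in the drinking water during part of the administration. SAMP8, the senescence-accelerated mouse prone 8, is a non-transgenic inbred strain, and SAMR1 is the related strain that resists accelerated senescence, so neither group is a model of one mutated gene.

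The deposited values are means over the 2 arrays of each group. They do not give the spread between the 2 mice of a group, and the p-values of the authors' own comparison were not used, so no difference below is set against that spread or called significant. Genes are therefore described by the size of the difference and by how far separate probe sets of one gene gave the same reading. Probe sets of one gene share the same RNA and arrays, so they check the probes and are not replicate animals. A difference of at least 0.3 (1.23-fold) either way is called past the threshold. A gene is counted as measured when at least 1 probe set that carries its symbol alone had a mean signal of at least 5 over both SAMP8 groups, and its value is the mean over such probe sets. Fewer cells of a type and less RNA per cell cannot be told apart in bulk cortex.

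Cortical neurons that fire strongly switch on immediate-early genes within minutes. The Fos, Jun, Egr and Nr4a families are transcription factors of this kind, and Arc, a synaptic protein, follows the same course. Their messengers are short-lived, and their level is commonly read as a sign of recent activity. Dual-specificity phosphatases (Dusp genes) are induced by the same kinase cascade and switch it off again.

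The promoters of 4 immediate-early transcription factors are shown because these genes had some of the largest differences below 0. Each line is the 250 bases before a RefSeq transcription start (GRCm38.p6), written 5′ to 3′ along the gene. Egr2 had 5 such windows, and the one with the most motif matches is shown. The capitals mark TGACG, the core of the cAMP response element, in either direction (CGTCA on the strand shown), and the CArG box, the site that binds serum response factor.
Egr2, chr10:67537619-67537868, plus strand: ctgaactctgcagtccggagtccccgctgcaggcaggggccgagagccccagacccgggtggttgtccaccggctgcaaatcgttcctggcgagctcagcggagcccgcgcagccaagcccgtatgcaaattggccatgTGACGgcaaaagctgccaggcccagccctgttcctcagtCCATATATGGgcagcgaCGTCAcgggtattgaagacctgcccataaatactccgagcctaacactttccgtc
Fos, chr12:85473640-85473889, plus strand: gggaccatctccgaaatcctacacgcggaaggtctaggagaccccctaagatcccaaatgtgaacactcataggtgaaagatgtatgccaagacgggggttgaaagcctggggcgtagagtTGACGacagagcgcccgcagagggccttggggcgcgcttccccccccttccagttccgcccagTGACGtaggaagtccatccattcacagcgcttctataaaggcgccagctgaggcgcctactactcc
Nr4a3, chr4:48045055-48045304, plus strand: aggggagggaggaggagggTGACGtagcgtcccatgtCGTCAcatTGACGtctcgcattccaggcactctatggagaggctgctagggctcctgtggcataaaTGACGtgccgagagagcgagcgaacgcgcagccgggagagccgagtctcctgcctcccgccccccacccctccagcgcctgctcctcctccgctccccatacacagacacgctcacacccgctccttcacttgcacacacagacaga
Junb, chr8:84978749-84978998, minus strand: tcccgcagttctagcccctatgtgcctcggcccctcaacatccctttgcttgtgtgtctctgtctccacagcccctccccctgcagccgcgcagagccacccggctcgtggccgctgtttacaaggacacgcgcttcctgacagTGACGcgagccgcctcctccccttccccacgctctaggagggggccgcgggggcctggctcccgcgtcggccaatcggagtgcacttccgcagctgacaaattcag
Of the 16 measured immediate-early genes, 12 matched a promoter in the RefSeq table by symbol, and Klf10, Egr1, Egr3 and Ier2 did not. TGACG was present in 9 of the 12, against 32.36% of the 7061 measured genes with a promoter and 19.79% of all 27025 genes with one. For a gene with several windows the highest count over them was taken, which favors genes with more windows. The Nr4a3, Nr4a1 and Nr4a2 promoters held 4 copies each, Fos, Egr2 and Npas4 held 2, and Fosb, Junb and Srf held 1. A CArG box lay in the promoters of Egr2 and Srf, and in 1.37% of those of measured genes. These matches are a description of the letters in the window.

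Over all probe sets the distribution of differences was narrow and centered on 0. The median was 0.00, the SD over probe sets was 0.11, and the extremes were -1.65 and 1.26. At or past the threshold were 301 probe sets above 0 (0.668%) and 268 below 0 (0.595%). Of the 9682 measured genes, 67 were higher by at least 0.3 (0.692%) and 71 were lower by at least 0.3 (0.733%). The largest differences lay mainly below 0, with 19 genes at -0.5 or below and 7 at 0.5 or above. At least a doubling was read for 1 gene, Ttr, and at least a halving for 5 genes, the cDNA gene 5330430B06Rik, Egr2, Fos, Arc and Nr4a3. Of these, 5330430B06Rik and Egr2 reached the signal minimum of 5 only through the control group, with STEE-fed levels of 4.18 and 4.54. The share of probe sets past the threshold changed with brightness. It went from 0.0% at a signal of 2 to 3 and 2.20% at 4 to 5 up to 3.27% at 5 to 6, and then down to 0.365% at 10 to 13, as the plot of difference against signal shows.

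**Figure D1:**
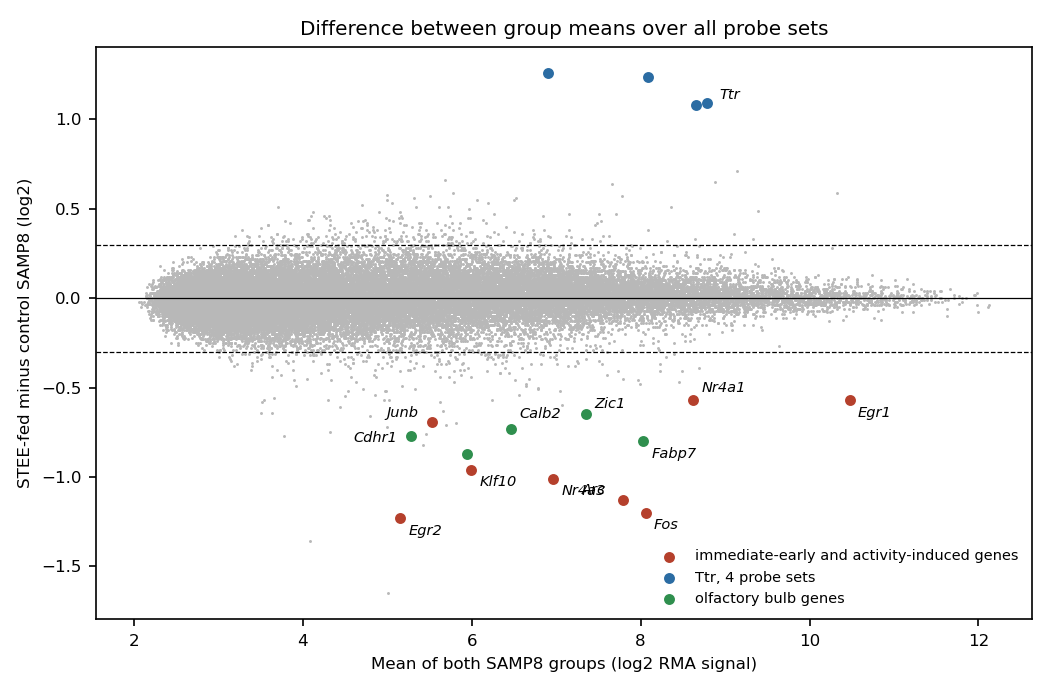
Each point is 1 of 45077 probe sets, with the mean of both SAMP8 groups (log2 signal) on the x axis and STEE-fed minus control (log2) on the y axis, and dashed lines at -0.3 and 0.3. Most points lie between the lines, the 4 Ttr probe sets sit alone at 1.08 to 1.26, and labelled immediate-early genes and olfactory bulb genes lie well below the lower line at medium to high signal.

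Immediate-early transcription factors were lower in the STEE-fed cortex. Of 21 listed, 16 were measured, all 16 had a value below 0, and 9 were past the threshold, against 0.733% of measured genes. Their median was -0.40, where that of all measured genes was 0.02. The other 5 listed, under the signal minimum, were also below 0, from -0.57 (Egr4) to -0.06 (Maff). Summed over the 16 genes, the log2 level was 114.74 in the control group, 106.96 in the STEE-fed group and 109.99 in SAMR1.

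Egr2, a zinc finger factor, had a mean of 5.77 in the control and 4.54 in the STEE-fed group, 2.35-fold lower, with 5.38 in SAMR1. A second, dimmer Egr2 probe set went from 4.77 to 3.41, a difference of -1.36, so both readings of this gene lay on the same side. Fos, a subunit of the AP-1 factor, was 8.66 in the control and 7.46 in the STEE-fed group, 2.30-fold lower, and 8.51 in SAMR1. Nr4a3, an orphan nuclear receptor, was 7.47 and 6.46 with 7.05 in SAMR1, a difference of -1.01 from its bright probe set. The other Nr4a3 probe sets, at control levels of 4.32 and 2.99, differed by -0.11 and -0.01, and the mean over all 3 was -0.38. Klf10, a Kruppel-like repressor, was 6.47 and 5.51, a difference of -0.96, with 5.60 in SAMR1.

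The other members past the threshold had smaller differences. Egr1 was among the brightest genes of the list at 10.76 in the control and 10.19 in the STEE-fed group, a difference of -0.57. Nr4a1 differed by the same amount, from 8.91 to 8.34. Junb, another AP-1 subunit, differed by -0.69, Fosl2 by -0.46 and Ier5 by -0.33. For Fosl2 and Ier5 the dimmer probe sets gave -0.06 in the first, and 0.00 and 0.15 in the second. These genes thus rest on 1 probe set each.

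Not every immediate-early gene was far below 0. Egr3 was at 10.03 in the control and differed by -0.03, with 9.42 in SAMR1. Nr4a2, read by 4 probe sets, had a mean difference of -0.04. Npas4, a factor specific to neuronal activity, differed by -0.06, Ier2 by -0.05, Jun by -0.12, Srf by -0.20 and Fosb by -0.26. The promoters of Nr4a2 and Npas4 hold as many TGACG copies as those of Nr4a3 and Fos. Whether these copies have a part in the differences was not tested.

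Activity-induced effectors, the proteins that act at the synapse or as secreted signals, divided into a few low genes and a majority near 0. Of 24 listed, 20 were measured, with 4 past the threshold below 0 (0.733% of all measured genes) and 0 above (0.692%), 9 above 0 and 10 below, and a median of -0.02. Arc was 8.36 in the control and 7.23 in the STEE-fed group, 2.19-fold lower, with 7.64 in SAMR1, read by 1 probe set. Gadd45b, a stress-induced regulator of DNA demethylation, differed by -0.76. Tiparp, a mono-ADP-ribosyltransferase, differed by -0.52, and its 3 probe sets read -0.48, -0.71 and -0.37. Per1, a clock gene that is also activity-induced, differed by -0.34.

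Most effectors on the list did not share this. Homer1, a postsynaptic scaffold, had a mean difference of 0.14 over 4 probe sets, Ptgs2, the inducible cyclooxygenase, of 0.24, and Nptx2, a secreted pentraxin, of 0.07. Bdnf, the neurotrophin, differed by -0.09 over 2 probe sets. Vgf, Scg2 and Plk2 lay between -0.04 and 0.06.

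The phosphatases and other feedback inhibitors of MAP kinase signaling were below 0 in 8 of 9 measured genes (13 listed), with 3 past the threshold and a median of -0.10. Over all measured genes, 38.04% were below 0 and 0.733% past the threshold below it. Dusp1 was 8.23 in the control, 7.75 in the STEE-fed group and 8.42 in SAMR1. Dusp6 was 8.44, 8.03 and 7.95 in the same order, and Dusp5 was 5.98, 5.64 and 5.83. The Sprouty and Spred inhibitors of the same cascade were nearer 0, with Spry2 at -0.09 and Spred1 at -0.01. Taken as 1 set, the transcription factors, effectors and inhibitors, 45 of the 9682 measured genes, supplied 16 of the 71 genes past the threshold below 0, and 10 of the 19 at -0.5 or below.

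**Figure D2:**
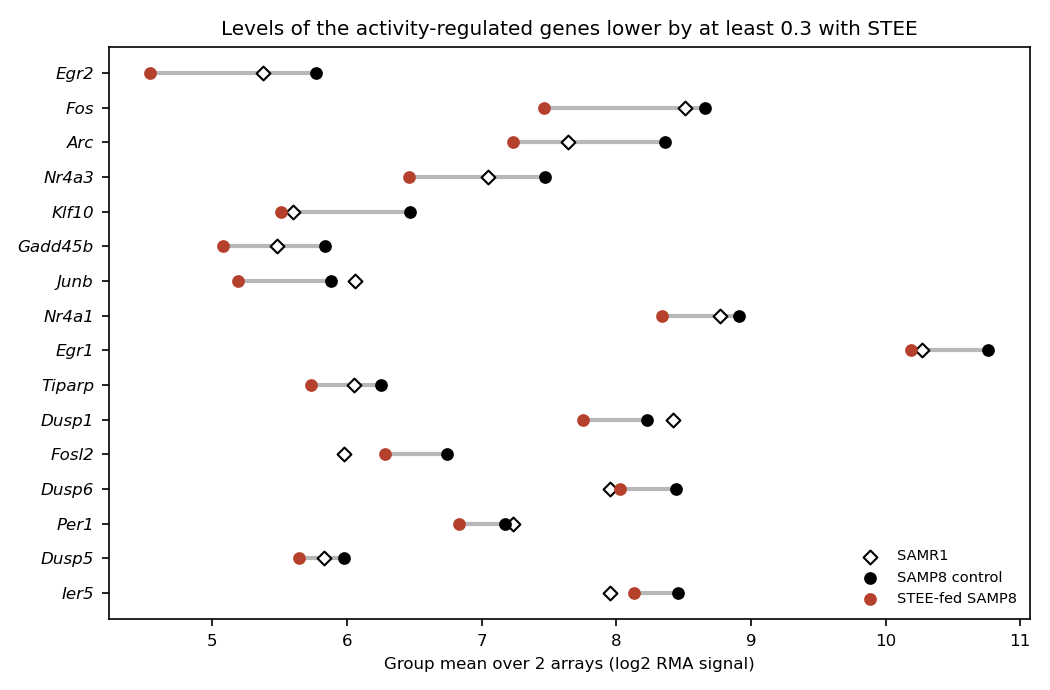
Group means (log2 signal, 2 arrays each) of the 16 activity-regulated genes at or below -0.3, with SAMP8 control in black, STEE-fed SAMP8 in red and SAMR1 as open diamonds. The grey line joins the groups compared, and it is longest for Egr2, Fos, Arc and Nr4a3; there is no error bar because the deposited values are group means.

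Clock genes keep daily time through a loop in which Clock and Arntl drive the Per and Cry repressors. Of 16 measured (19 listed), 3 were past the threshold below 0, Bhlhe40 at -0.41, Per1 at -0.34 and Per2 at -0.30. That is 18.75%, beside 0.733% of all measured genes. Per3 differed by 0.19 over 4 probe sets, Cry1 by 0.17 and Npas2 by 0.21. The core drivers Clock and Arntl differed by -0.01 and -0.07, and Dbp, a clock output, by -0.11.

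Heat shock proteins refold damaged proteins. Of 21 measured (24 listed), 15 were below 0, with a median of -0.02, and 1 was past the threshold. These are 71.43% and 4.76%, beside 38.04% and 0.733% of all measured genes. Hspa1b, the stress-inducible Hsp70, had a mean of 6.73 in the control, 6.25 in the STEE-fed group and 5.57 in SAMR1, and its 3 probe sets read -0.38, -0.45 and -0.63. Its near-identical copy Hspa1a, under the signal minimum, differed by 0.01, and reads of these copies may not be separable by the probes. Hspb1 and Dnajb1 differed by -0.24 and -0.20. The constitutive Hspa8 and Hsp90ab1 differed by 0.01 and -0.02.

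Transthyretin, Ttr, the thyroid hormone and retinol carrier made in the brain chiefly by the choroid plexus, was the highest gene. Its mean over 4 probe sets was 7.52 in the control group, 8.69 in the STEE-fed group and 9.54 in SAMR1, 2.25-fold higher with STEE. The 4 probe sets read 1.09, 1.08, 1.24 and 1.26, a spread much smaller than the difference itself. Of the 14 choroid plexus markers listed, 11 were under the signal minimum. Those 11 differed by -0.09 to 0.22, with 9 above 0 and 2 below. Among them were Folr1, a folate receptor of that epithelium, at 3.60 in the control with a difference of -0.09, Aqp1 at 3.17 with 0.01, and Kcnj13, a potassium channel, at 3.25 with 0.22. The other markers with a measured level, Enpp2 and Clic6, differed by 0.09 and 0.01. Summed over the 3 measured markers, Ttr included, the log2 level was 20.54 in the control, 21.8 in the STEE-fed group and 22.84 in SAMR1.

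Genes induced by glucocorticoid hormone held more members past the threshold above 0 than any other list or family read. This list was drawn up after values of some of its members had been seen, so its count is only a description. Of 27 listed, 20 were measured, with 8 past the threshold above 0, 2 below it and a median of 0.16, against 0.692% of measured genes above 0.3. Fkbp5, a chaperone that tempers the glucocorticoid receptor, was 6.61 in the control, 7.07 in the STEE-fed group and 6.51 in SAMR1. Its dimmer probe sets, at 4.46 and 2.43, differed by 0.20 and 0.06. Zbtb16, a zinc finger repressor, had 3 probe sets at 0.47, 0.47 and 0.36. Tsc22d3, the glucocorticoid-induced leucine zipper, had 0.32 and 0.42 from its bright probe sets and 0.01 from a dim one.

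The remaining members past the threshold were Sult1a1, a sulfotransferase, at 0.56, Mertk, a phagocytic receptor, at 0.37, Mt2, a metallothionein, at 0.36, Gjb6, an astrocyte connexin, at 0.35, and Fam107a at 0.34. The 2 members below it were Dusp1 and Per1, which are also activity-induced. Sgk1, Klf9 and Cdkn1a, other hormone targets, differed by 0.16, 0.19 and 0.16. Ddit4 and Pdk4 differed by -0.05 and -0.09.

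Genes that are prominent in the olfactory bulb and in newborn interneurons were lower in the STEE-fed group. This list too was drawn up after some of its values had been seen. Of 29 listed, 28 were on the array and 15 were measured, all 15 below 0, with 9 past the threshold and a median of -0.35. Of all measured genes, 38.04% were below 0 and 0.733% past the threshold below it. Of the 13 under the signal minimum, 11 were below 0 and 5 past the threshold, from -0.69 (Eomes) to 0.02 (Omp). Th, the dopamine-synthesizing enzyme of bulb interneurons, was 3.81 in the control and differed by -0.58, and S100a5 by -0.64.

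Fabp7, a fatty acid-binding protein of radial glia and bulb glia, was 8.43 in the control, 7.63 in the STEE-fed group and 8.26 in SAMR1. Zic1, a zinc finger factor of bulb interneurons, was 7.03, 6.27 and 7.08, with probe sets at -0.65 and -0.87. Cdhr1, a cadherin of mitral cells, was 5.67, 4.90 and 4.82, so only its control level was above the signal minimum. Calb2, calretinin, was 6.83, 6.10 and 6.94. Gng4, Pbx3 and Ccnd2 differed by -0.45, -0.35 and -0.32, and all 5 measured Ccnd2 probe sets lay between -0.41 and -0.18. The part of bulb tissue in these values was not tested. Summed over the 15 genes, the log2 level was 105.11 in the control, 98.92 in the STEE-fed group and 100.12 in SAMR1.

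All the defining markers checked for excitatory neurons, interneurons, astrocytes, oligodendrocytes, microglia and endothelium (2 to 5 for each) had a signal of at least 5 in both SAMP8 groups. The interneuron list had 14 measured genes, 9 below 0 and 4 above, with a median of -0.06. Past the threshold below 0 were 3 (21.43%, beside 0.733% of all measured genes), Calb2, Dlx1 at -0.51 and Dlx2 at -0.41. All 3 of these belong to the bulb list as well. Among markers of mature cortical interneurons, Pvalb was at 0.00, Sst at 0.03, Vip at 0.14, Reln at -0.09 and Gad1 and Gad2, the GABA-synthesizing enzymes, at -0.18 and -0.07. Of 15 measured excitatory neuron genes, 13 were above 0, with 0 past the threshold and a median of 0.08. The deep-layer factors Tbr1 and Fezf2 were the highest of them at 0.29 and 0.27, and Slc17a7, the vesicular glutamate transporter, differed by 0.09. Striatal genes, a check on how deep the cut went, were above 0 in 11 of 15, with a median of 0.07 (58.20% and 0.02 over all measured genes), among them Drd2 at 0.12, and Penk at -0.09.

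Glial groups differed little. Of 15 astrocyte genes, Gjb6 alone was past the threshold, and Gfap, the filament protein of reactive astrocytes, differed by -0.14. Of 18 measured myelin genes, 12 were below 0 (66.67%, beside 38.04% of all measured genes), with a median of -0.05. They ran from Aspa and Ermn at -0.18 to Cldn11 at 0.21. Of 6 measured oligodendrocyte precursor genes, 4 were above 0, with a median of 0.13, including Olig1 at 0.13 and Olig2 at 0.16. Of 11 microglia genes, 0 were past the threshold, and Cx3cr1 and P2ry12 differed by -0.03 and -0.05. The 10 blood markers under the signal minimum differed by -0.10 to 0.12.

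**Figure D3:**
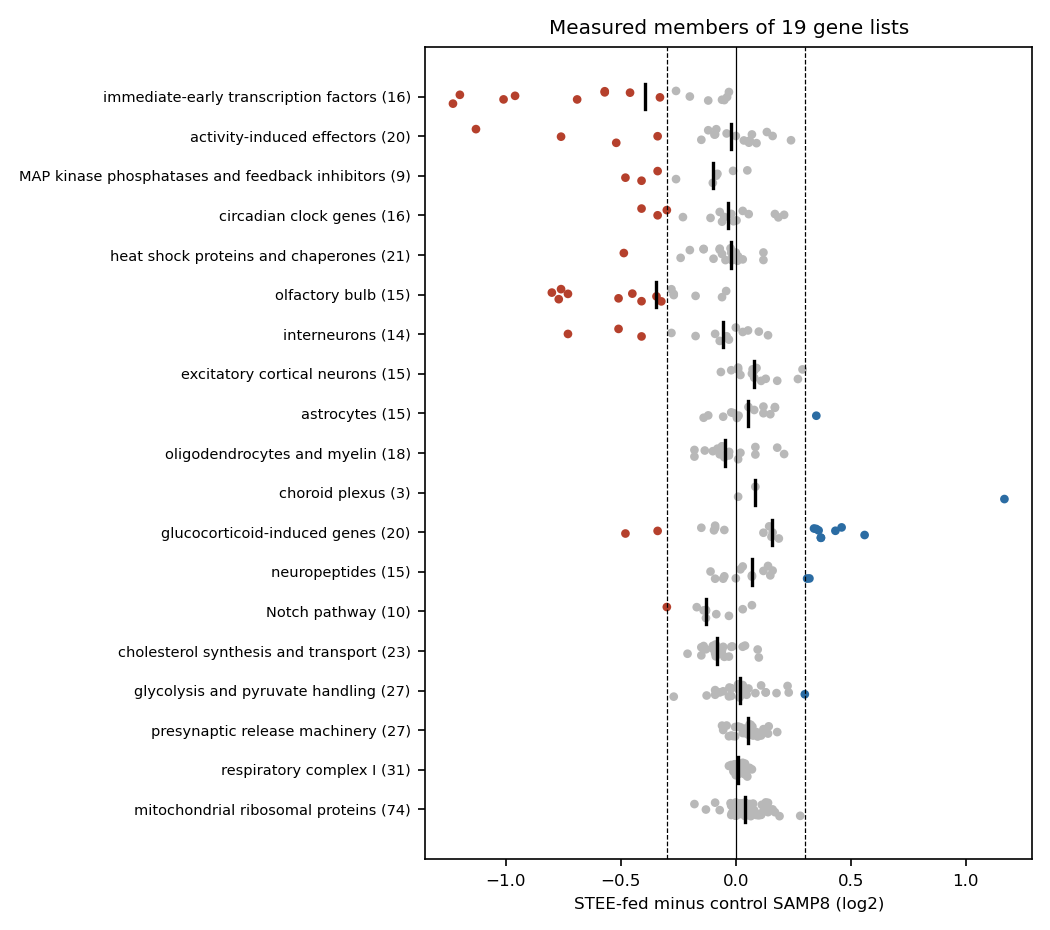
Each point is 1 measured gene of the list named on the y axis (number measured in parentheses), placed by STEE-fed minus control (log2), with red and blue for genes at or past -0.3 and 0.3 and a black bar at the list's median. The immediate-early list (median -0.40) and the olfactory bulb list (median -0.35) lie to the left with 9 red points each, the glucocorticoid-induced list lies to the right with 8 blue points, and the bottom lists cluster at 0.

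In the developmental pathways that the study discusses, 1 measured Notch gene, 1 progenitor regulator and 0 Hedgehog genes were past the threshold. The Notch and progenitor shares were above the 0.733% of all measured genes lower by at least 0.3, each from 1 gene. The study chose its genes by an ANOVA p-value, with no minimum size of difference stated. Genes it names can therefore lie under the threshold used here. In the Notch pathway, which keeps neural stem cells undifferentiated, 8 of 10 measured genes were below 0 with a median of -0.13. That is 80.0%, beside 38.04% of all measured genes, and the median shrank with a higher signal minimum. Jag1, a ligand, was at the threshold with 5.72 in the control and 5.42 in the STEE-fed group. Hes1, a target of the pathway, under the signal minimum at 4.25, differed by -0.32. The receptors Notch1, Notch2 and Notch3 differed by -0.09, 0.07 and -0.13. Of 17 measured progenitor regulators, 12 were below 0 (70.59%, beside the same 38.04%) and Sox4, a factor of newborn neurons, was past the threshold at -0.34. Dcx, a microtubule protein of migrating neurons, differed by -0.24, Sox2 by -0.18, Nes by -0.10 and Elavl4, a neuronal RNA-binding protein, by 0.18. Among 9 measured Hedgehog genes, the receptor Ptch1 differed by -0.27 and the ligand Shh by 0.12. The study reports Shh as lower with STEE, the opposite side, without naming the probe set. Whether both values come from the same probe set could not be told. Mbp, a myelin protein, and Gpm6b are also reported as higher with STEE. Here their brightest and second brightest probe sets lay below 0, at -0.08 and -0.07 for Mbp and -0.03 and -0.01 for Gpm6b. Jag1, Sox4, Ptch1 and Elavl4 lay on the side that the study reports.

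In the neurotrophin list, which also holds receptors of related growth factors, 0 of 7 measured genes were past the threshold. The neurotrophin receptors Ntrk2 and Ntrk3 were at 0.09 and 0.17, and Gfra2, a receptor of the GDNF family, at 0.08. In the insulin, PI3K and mTOR list 0 of 29 were, from Irs2 at -0.20 to Igf2 at 0.19, with Pik3r1, the p85 subunit, at 0.12. Of 16 monoamine genes, 0 were past the threshold, with Maob and Maoa, the oxidases, at -0.17 and -0.13, and Htr1a, a serotonin receptor, at 0.20. The cholinergic list had 4 of 17 genes measured, among them Ache, the degrading enzyme, at -0.16.

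The energy metabolism lists had medians close to 0, while single genes of pyruvate and glucose handling lay further out. Of 27 measured glycolysis and pyruvate genes the median was 0.02, and Slc16a4, a monocarboxylate transporter, was at the threshold with 5.51 in the control and 5.81 in the STEE-fed group. The enzymes Pgk1, Pgam1 and Pkm differed by 0.01, 0.01 and 0.03, and Pcx, pyruvate carboxylase, by 0.13. Pdk1 and Pdk3, kinases that switch off pyruvate dehydrogenase, differed by 0.23 each, Slc2a1, a glucose transporter, by 0.18 and Pfkfb3, an activator of glycolysis, by -0.27. All 31 measured complex I genes lay between -0.03 and 0.07. Of 74 mitochondrial ribosomal protein genes, 59 were above 0 (79.73%, beside 58.20% of all measured genes). Their median was 0.04 and 0 were past the threshold.

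Cholesterol synthesis and transport leaned the other way. Of 23 measured genes, 19 were below 0 (82.61%, beside 38.04% of all measured genes). Their median was -0.08 and 0 were past the threshold. Cyp51 was the lowest at -0.21, and Dhcr7 and Sc5d were at -0.15. Apoe, the brain's main lipoprotein, differed by -0.10. Among 24 measured antioxidant genes, 17 were above 0 (70.83%, beside 58.20% of all measured genes) and Mt2 was past the threshold. Nfe2l2, the regulator of the antioxidant response, differed by -0.10 and Cat, catalase, by 0.15.

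No measured gene of the presynaptic, postsynaptic, GABA-A receptor or ionotropic glutamate receptor lists was past the threshold. A postsynaptic member under the signal minimum differed by 0.38. Presynaptic release genes were above 0 in 19 of 27 measured, and postsynaptic scaffolds in 17 of 22, with a median of 0.06 in each, beside 58.20% above 0 and a median of 0.02 over all measured genes. Of 12 GABA-A receptor subunits and 13 ionotropic glutamate receptor subunits, 0 were past it, with medians of 0.01 and 0.04. Neuropeptides held 2 of 15 above the threshold (13.33%, beside 0.692% of all measured genes), Grp at 0.32 and Crh, corticotropin-releasing hormone, at 0.31. Both were read by 1 probe set, at control levels of 5.23 and 5.84. Kcna5, a potassium channel, was at 0.41 from a control level of 4.99, and Cacng5, an auxiliary channel subunit, at -0.36. Of 162 measured Zfp zinc finger genes, 4 (2.47%, against 0.692% of all measured genes) were past the threshold above 0, Zfp941 (0.66), Zfp810 (0.46), Zfp386 (0.37) and Zfp764 (0.32), and 0 below.

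In all, 49 lists and 34 families defined by symbol were read, besides the bulb and glucocorticoid lists. Of 75 with at least 5 measured genes, 5 had a median at least 0.1 from 0, and 52 of the 75 held no gene past the threshold. Of the 138 genes past it, 51 belonged to one of these lists or families and 87 to none. The 39 olfactory receptor genes on the array were under the signal minimum, with differences of -0.26 to 0.14.

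How far separate probe sets of a gene gave the same reading was then examined over the 3742 measured genes with at least 2 such probe sets. The brightest and second brightest probe sets correlated weakly, with Pearson r = 0.43 and Spearman rho = 0.35 across 3742 genes. These are readings of the same arrays, and genes are not independent replicates. All probe sets of a gene lay on one side of 0 in 1846 genes (49.33%), 1221 of them above and 625 below. The median range between the probe sets of a gene was 0.09, and the 90th percentile was 0.22, beside a median absolute difference of 0.06 over all measured genes.

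Agreement was closer where the difference was larger. The second probe set lay on the same side in 56.99% of 2588 genes whose brightest probe set was 0.01 to 0.1 from 0, in 71.15% of 759 at 0.1 to 0.2, in 75.52% of 143 at 0.2 to 0.3, and in 34 of 42 (80.95%) past the threshold. The second probe set was itself past the threshold in 15 of those 42, in 5 of 23 above and 10 of 19 below. Tnik, a kinase of the postsynapse, is a case where they parted, with 0.57 from the brightest and -0.04 from the second. March7, a ubiquitin ligase, was the 1 gene with probe sets past the threshold on both sides, at 0.37 and -0.49, beside 0.16 and 0.19.

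**Figure D4:**
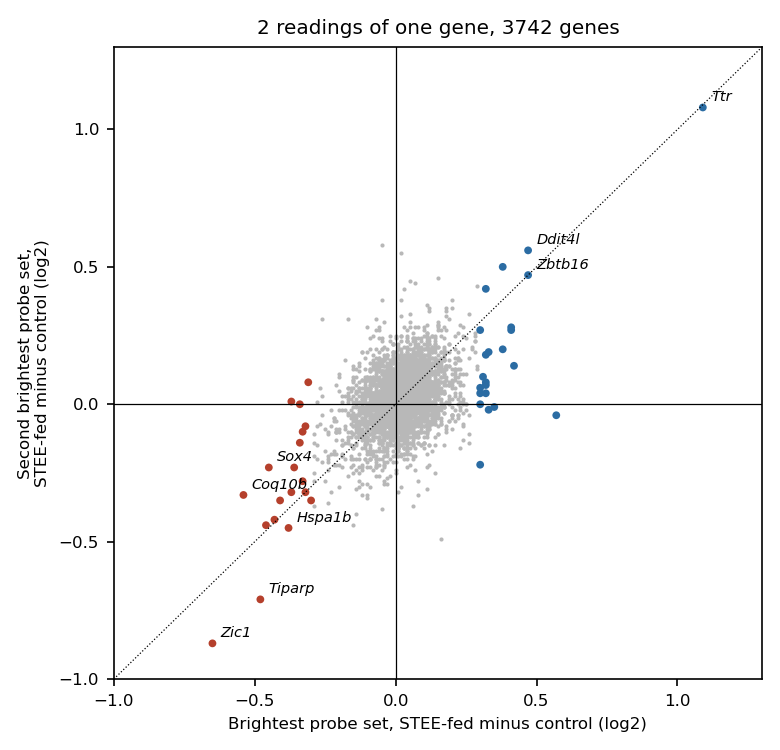
The brightest probe set (x axis) against the second brightest (y axis) for 3742 genes, both as STEE-fed minus control (log2), with genes whose brightest is past the threshold in color and a dotted line of equality. The cloud at the center is nearly round (r = 0.43), while Ttr, Zic1, Tiparp, Ddit4l, Zbtb16 and Hspa1b lie near the line.

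Most genes past the threshold rested on 1 reading, 56 of 67 above and 58 of 71 below. With several probe sets all on one side, 11 genes were past it above and 13 below. The lowest of these were Zic1 at -0.76, Tiparp at -0.52, Hspa1b at -0.49, Gng4 at -0.45, Coq10b, a coenzyme Q-binding protein, at -0.44 and Zswim6 at -0.43. They were followed by Pbx3, Sox4, Arl5b, Ccnd2, Kdm6b, a histone demethylase, and Gpsm1, from -0.35 to -0.30. The Sox4 value came from probe sets at -0.45 and -0.23, and 6 dimmer ones at -0.27 to -0.04 brought the mean over all 8 to -0.18.

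Above 0, Ttr was followed by Ddit4l, an inhibitor of mTOR signaling, whose levels were 6.58 in the control, 7.09 in the STEE-fed group and 6.03 in SAMR1. Its probe sets read 0.47 and 0.56, with 0.40 from a dimmer one. Flrt3, a cell adhesion protein, differed by 0.44, Zbtb16 by 0.43, Tsc22d3 by 0.37, Trub2 by 0.35, Fam107a and Bach2 by 0.34, and Tenm2, a teneurin of synaptic adhesion, by 0.33. Ldb2 and Gpcpd1, at 0.31 each, closed the 11. Sdc4, a heparan sulfate proteoglycan, came next and was just under the threshold (1.227-fold). Ldb2 had probe sets from 0.14 to 0.51 and Gpcpd1 0.15 and 0.46, so the size of these differences depended on the probe set read.

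**Figure D5:**
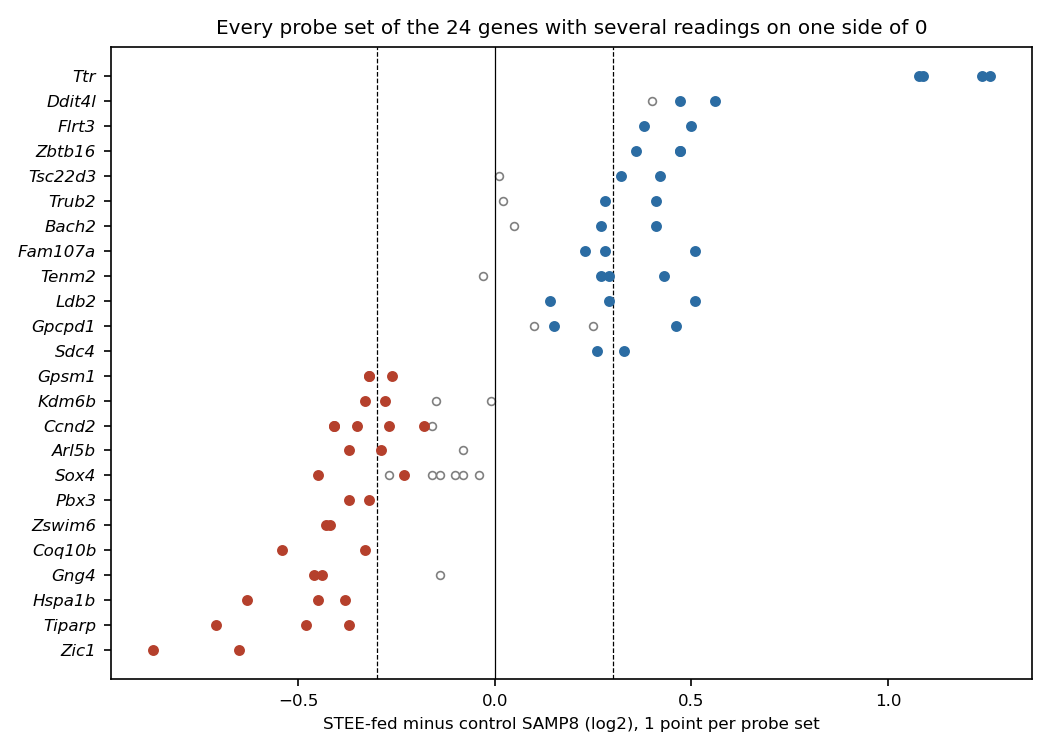
STEE-fed minus control (log2, x axis) for every probe set of the 12 lowest and 12 highest genes with at least 2 readings on one side of 0, filled where the signal was at least 5 and open where it was lower. The filled points of Ttr sit at 1.08 to 1.26 and those of Zic1 at -0.87 and -0.65, and most open points lie closer to 0 than the filled ones of the same gene.

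Among genes with 1 bright probe set, the lowest was 5330430B06Rik, at 5.83 in the control, 4.18 in the STEE-fed group and 4.72 in SAMR1. Its second, dim probe set gave -0.09. Egr2, Fos, Arc and Nr4a3 came next. The 5 highest were Zfp941 at 0.66, 9330154F10Rik at 0.57, Sult1a1 at 0.56, B3galt2, a galactosyltransferase, at 0.55 and Ttll1, a tubulin glutamylase, at 0.53. Dimmer probe sets of Zfp941 and Ttll1 gave 0.16, and 0.09 and 0.01, while those of B3galt2 gave 0.41 and 0.16.

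The array's own controls lay close to 0. The 23 non-specific control probe sets lay between -0.05 and -0.02 and the 17 tag controls between -0.15 and 0.10. Column medians were 4.15 in both SAMP8 groups and 4.16 in SAMR1.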

How the data were processed

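RNA from the cerebral cortex of 6 mice (2 per group) was read on Affymetrix mouse whole-genome array strips after 3′ IVT amplification. Gene-level values were made by the authors with the RMA algorithm (Expression Console), and their group comparison used the Transcriptome Analysis Console. The deposited values used here are log2 group means with 2 decimals, and the genome build is not given in the sources used here. The authors' own fold changes, p-values and false discovery rates, also in the tables, were not used. Group means give no SD, so no test was run, and the number of arrays limits the precision.

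The difference of the 2 SAMP8 means was taken per probe set and averaged per gene over probe sets with 1 symbol and a mean signal of at least 5 (17064 of 45077 probe sets, 9682 genes). No symbol was given for 5694 probe sets and several for 1253. Of 62 symbols turned into dates by a spreadsheet, 60 were restored through the description. The genes named were the 12 highest and 12 lowest with at least 2 probe sets on one side of 0, the 5 highest and 5 lowest with 1 probe set, members of each list past 0.3 or furthest from 0, and genes with probe sets past 0.3 on both sides. Other members of a list are named for their role. The members, lists and thresholds were chosen with earlier results of these data known. Alternatives were other thresholds of fold and signal, the brightest or median probe set, centring, and leaving out probe sets that match several transcripts (s_at and x_at). The script that computes gene values was tested on simulated data. Analyses used Python 3.11.15 with pandas 2.3.3 and scipy 1.17.1.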

Additional observations from a re-analysis of the deposited data

How the results depend on the processing

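The counts of probe sets past the threshold (301 above, 268 below) were 1421 and 1313 at a threshold of 0.2, 27 and 47 at 0.5, and 177 and 157 among probe sets of signal at least 5. The counts of genes (67 above, 71 below) were 318 and 225 at 0.2, 7 and 19 at 0.5, and 28 and 42 with a signal minimum of 6. Other settings gave gene counts within 1.5 times of these, although without a signal filter 39 of the 67 and 51 of the 71 were the same genes, since dim probe sets then enter the means. Setting the median of all genes to 0, an alternative chosen after seeing the data, gave 55 above and 90 below. The number of lists with a median at least 0.1 from 0 was 5, and 2 without a signal filter and 3 with the brightest probe set. The immediate-early median was -0.26 without the filter, and the Notch median -0.04 with a minimum of 6. The share of genes whose second probe set lay on the same side (80.95%) was 66.91% without the filter, 76.19% with a minimum of 6 and 73.33% without s_at and x_at probe sets. Of 175 values of named genes under alternatives, 22 moved by more than 0.078, the SD between 2 probe sets of a gene. A change of sign was counted only for genes at or past 0.3, and 0 were found. No paired analysis was possible because the deposited columns are group means, and leaving out each replicate was not run for the same reason.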

Other observations

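Several genes outside the lists lay past the threshold. Nab2, a co-repressor that binds Egr factors, differed by -0.57, Apold1, an endothelial early-response gene, by -0.72, and Ier5l by -0.58. Ctgf, Rnd3 and Midn differed by -0.30, -0.42 and -0.42. Above 0, Npy5r, a neuropeptide Y receptor, differed by 0.36 and Plvap, an endothelial protein of fenestrated vessels, by 0.35, each from 1 probe set. These genes were chosen after their values were seen.

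Gm17167 was at 9.14 in the control and 9.63 in the STEE-fed group, a difference of 0.49, and at 4.08 in SAMR1. Its level thus differed far more between the strains than between the SAMP8 groups.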
